A study of Mus musculus with 12 samples.

Results

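The genes described here are the numbered zinc finger genes (symbol Zfp followed by digits) that were expressed in cultured neural stem/progenitor cells (NSPCs) of the mouse. The members were selected on their level: the mean over 6 libraries had to be at least 10 CPM, that is, counts scaled to a library total of 1000000 reads, and Zfp36, an RNA-binding protein of another finger type, was left out. Of 357 such symbols in the count tables, 219 were members and 138 lay below the limit, out of 24525 genes in all. The rule used the mean level over both genotypes and not the difference between them. All 219 members passed edgeR's filter on low counts and were among the 13112 genes tested, while 100 of the 138 below the limit passed and 10 of those 138 had no read in any library. Just inside the limit lay Zfp239, Zfp940 and Zfp51, and just outside it lay Zfp213, Zfp759 and Zfp438, whose normalised means were 9.61, 8.76 and 9.76 CPM in wild type and 10.3, 10.9 and 9.96 CPM in Ythdf2 -/-.

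Zinc fingers are small protein folds in which paired cysteines and histidines hold a zinc ion, and long arrays of them read DNA sequence. Many of these proteins also carry a KRAB domain, which binds the co-repressor Trim28 and through it brings histone methylation to transposable elements and imprinted loci. Such genes sit in clusters that grew by tandem duplication, and their mRNAs are often rich in N6-methyladenosine (m6A), the mark that Ythdf2 binds to speed the decay of an mRNA. The comparison therefore asked how the levels of these mRNAs were distributed between genotypes. Methylation itself was not measured in the libraries used here.

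The cells were passage P1 NSPCs, grown as neurospheres with EGF and bFGF from E14.5 brains of C57BL/6 embryos. Wild-type cultures (3 libraries) were compared with Ythdf2 -/- cultures (3 libraries) that came from intercrosses of Ythdf2 +/- mice, in which a ubiquitous Cre had removed a LoxP-flanked stretch with the 5′ UTR and exon 1. The deletion was thus present in every cell type. The sources used here name no other allele or treatment that separated the groups, and do not say whether the Cre was still carried. The libraries were input RNA of an m6A immunoprecipitation experiment, that is, fragmented mRNA taken before the antibody step. Nothing in the labels says whether same-genotype libraries came from separate embryos or litters, so p-values measure only the spread between these samples.

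Members with several fingers carry a repeated coding stretch that runs from the paired histidines ending a finger into the link to the next. Some of these stretches hold GAACT, a form of the sequence in which m6A is laid down. Windows of 30 bases over such stretches are shown for 3 members. In the windows shown, GAACT lies between the paired histidines, ahead of the link. Zfp182 was among the members with the most such windows (6). Zfp37 held 5 and is one of the members whose 3 Ythdf2 -/- libraries lay above wild-type replicates 1 and 2. Zfp426 lay higher in every Ythdf2 -/- library, narrowly so at 41.7 against 41.2 CPM in replicate 3 of each genotype. Zfp37 and Zfp426 were thus picked in part on their levels. Zfp26, Zfp433, Zfp619 and Zfp846 also held 5 windows and are not shown, and Zfp868, with 2, had a log2 fold change of -0.55 with all libraries. The coding sequences are those of GENCODE M21 on GRCm38 (mm10). All windows lie in the last exon of their transcript and are written 5′ to 3′ on the strand of the gene, which is the minus strand for all 3, with GAACT in capitals; 3 of the 6 windows of Zfp182, 4 of the 5 of Zfp37 and all 3 of Zfp426 are given.
Zfp182 chrX:21030154-21030183: catcaaaGAACTcacactggagagaagccc
Zfp182 chrX:21030406-21030435: catcaaaGAACTcatacagaagaaaaaccc
Zfp182 chrX:21030742-21030771: catcagaGAACTcacactggagagaaacct
Zfp37 chr4:62191347-62191376: caccagaGAACTcatacaggggagaaaccc
Zfp37 chr4:62191515-62191544: catatgaGAACTcatacaggtgactgcccc
Zfp37 chr4:62192019-62192048: catcagaGAACTcacactggggaaaaacca
Zfp37 chr4:62192103-62192132: catcaaaGAACTcacactggggagaaacca
Zfp426 chr9:20470325-20470354: cacatgaGAACTcacaatgctaaaaaatca
Zfp426 chr9:20470493-20470522: catataaGAACTcacacaggagagaagcct
Zfp426 chr9:20470661-20470690: catggaaGAACTcacacaggagagaagccc
The windows of different genes resemble one another on both sides of the motif, since they encode the same part of the fold.

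The symbols matched their coding sequences. A pattern of paired cysteines and histidines at finger spacing was found in 213 of 219 members (97.3%) and in 4.86% of all tested genes with a transcript. The members had a median of 10 such fingers and a maximum of 36, in Zfp142. No finger pattern was found in Zfp330, Zfp365, Zfp503, Zfp703, Zfp839 and Zfp935. A KRAB-like pattern was found in 101 members (46.1%, against 1.83% of all tested genes), 81 others had 5 or more fingers and 37 others had fewer. The median coding length of members was 1752 bases against 1452 for all tested genes, and their median transcript GC content was 45.9% against 49.9%.

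The libraries held 11029827 to 13185778 counted reads, and the members had a median of 280 to 372 reads and a lowest value of 81 to 103 per library. Ythdf2 had 840, 961 and 999 reads in wild-type libraries and 137, 198 and 138 in Ythdf2 -/- libraries, so each library matched its label (log2 fold change -2.66, standard error 0.183, adjusted p = 0.0547 by edgeR's quasi-likelihood test). Wild-type replicate 3 stood apart from the other 5 libraries, at 91.0 on a first principal component where they lay between -30.6 and -6.04, and the log2 fold changes of most genes described are therefore also given without it. It also differed in markers of more mature cells. Of 15 neuronal, astrocyte and oligodendrocyte-lineage markers 10 were highest in it, among them Mbp with 572 CPM against 1.21 to 8.85 CPM in the other libraries. The summed level of 6 oligodendrocyte-lineage markers was 3328 CPM in it and 1477 to 1791 CPM elsewhere, and that of 5 neuronal markers 1842 against 1051 to 1279 CPM, although Olig1 and Olig2 were lowest in it at 546 and 323 CPM. The 4 astrocyte markers summed to 958, 1178 and 4576 CPM in wild-type replicates 1, 2 and 3 and to 425 to 783 CPM in Ythdf2 -/-. Of the 4, Gfap, an astrocyte filament gene, did not overlap between genotypes, at 436, 625 and 3041 CPM in wild type and 127, 87.7 and 5.55 CPM in Ythdf2 -/-. The other 3 overlapped: Aqp4 was at 145, 165 and 1105 against 225, 155 and 54.7 CPM, Aldh1l1 at 338, 336 and 386 against 372, 481 and 290 CPM, and S100b at 38.9, 53.0 and 44.7 against 58.6, 26.1 and 74.4 CPM. The 6 neural progenitor markers summed to 3317 CPM in wild-type replicate 3 and 4777 to 6484 CPM elsewhere. Nes, Vim and Fabp7 were lowest in it at 264, 1433 and 759 CPM, while Sox2, Pax6 and Hes5 were highest in it at 550, 92.5 and 218 CPM. The part of these markers in the members' levels was not tested. Markers of microglia, endothelium and mesenchyme summed to at most 4.57 CPM a list in any library, with C1qa and Cldn5 at 0 in all 6.

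Over all 6 libraries, the levels of the Zfp mRNAs differed little between genotypes. Their log2 fold changes, Ythdf2 -/- over wild type, ran from -0.58 to 0.57 with a median of -0.02, where the median of all genes tested was -0.01. The middle 50% of members lay between -0.10 and 0.13, and those of all genes between -0.16 and 0.15. There were 105 members with a value above 0 and 114 below it, which is 47.9% above against 48.1% of all genes tested. No member differed by over 1.5-fold, a size reached by 9.75% of all genes tested and by 4.75% of those with at least 10 CPM. In bulk RNA such as this, fewer cells of a type and less RNA per cell cannot be told apart.

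**Figure D1:**
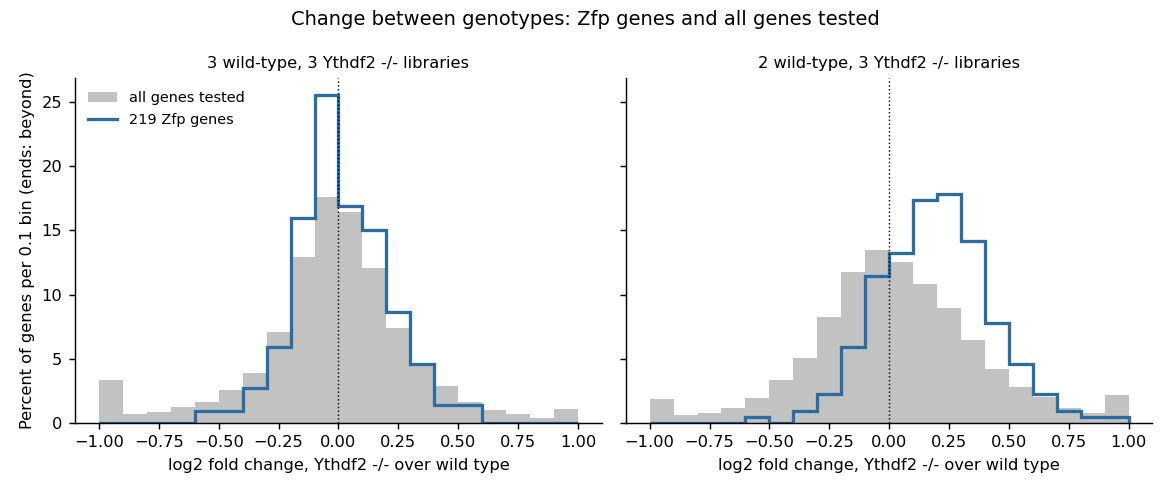
Percent of genes in each 0.1-wide bin of the log2 fold change (Ythdf2 -/- over wild type) for the 219 Zfp genes (blue line) and all genes tested (grey), with all 6 libraries on the left and without wild-type replicate 3 on the right; the outermost bins also hold values beyond them. The Zfp genes were centred at -0.02 on the left and at 0.19 on the right, while all genes were centred near 0 in both.

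At an adjusted p under 0.05 by edgeR's quasi-likelihood test, 0 members were called higher and 0 lower, with 0.0% of all genes called. At an unadjusted p under 0.05 there were 3 members higher (1.81% of all genes tested) and 1 lower (1.82%), and the adjusted p of each of the 4 was 0.999. These shares of the members were near the background. The first count was 1 without wild-type replicate 2 or without Ythdf2 -/- replicate 1, and the second was 0 without any 1 of wild-type replicates 1 and 2 and Ythdf2 -/- replicates 1 and 2. Dropping wild-type replicate 3 raised them to 38 members higher (8.03% of all genes) and 3 lower (8.58%). DESeq2 and unweighted limma-voom also called 0 members at an adjusted p under 0.05. In 9 members all 3 Ythdf2 -/- values lay above all 3 wild-type values, and in 7 they lay below, where 5.26% and 4.92% of all genes tested did so. The 9 were Zfp277, Zfp775, Zfp503, Zfp30, Zfp426, Zfp763, Zfp623, Zfp64 and Zfp825, and the 7 were Zfp971, Zfp239, Zfp639, Zfp146, Zfp207, Zfp326 and Zfp942.

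Zfp277 (chr12:40315046-40445790), a partner of the Polycomb protein Bmi1, had the smallest p among the members. Its normalised level was 36.3, 39.1 and 35.5 CPM in wild-type replicates 1, 2 and 3 and 60.1, 48.9 and 52.0 CPM in Ythdf2 -/- replicates 1, 2 and 3. The groups did not overlap, and wild-type replicate 3 lay with the other wild-type libraries. The log2 fold change was 0.54 (standard error 0.135, unadjusted p = 0.00639, adjusted p = 0.999). In the separately deposited expected counts, its values were 300, 335 and 636 in wild type and 307, 429 and 477 in Ythdf2 -/-, where the groups overlapped. For this gene the expected counts came to 74.4% of the raw counts, against a median of 0.217% over the members, and what the 2 kinds of count each cover was not tested.

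Zfp503 (chr14:21983959-21989601), also called Nolz1 and known from the developing striatum, stood at 15.1, 11.5 and 12.8 CPM in wild type and 23.2, 17.0 and 18.2 CPM in Ythdf2 -/-. Each Ythdf2 -/- library was above each wild-type library, with a log2 fold change of 0.57 (standard error 0.203, unadjusted p = 0.0297, adjusted p = 0.999). Zfp775 (chr6:48602007-48621548), a gene with 11 fingers and no KRAB pattern, stood at 11.5, 12.9 and 12.9 CPM in wild type and 17.1, 19.5 and 16.0 CPM in Ythdf2 -/-. The groups were again apart, by 0.50 on the log2 scale (standard error 0.171, unadjusted p = 0.0250, adjusted p = 0.999). Its exons share 522 bases with Gm38804 on the opposite strand, and the strand setting of the count is not given in the sources used here, so its reads may belong in part to that gene.

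Zfp971 (chr2:178023284-178035859), a KRAB gene with 12 fingers, was the member in the other direction. It stood at 18.3, 20.1 and 18.7 CPM in wild type and 13.6, 11.1 and 15.8 CPM in Ythdf2 -/-, with no overlap. Its log2 fold change was -0.50 (standard error 0.190, unadjusted p = 0.0384, adjusted p = 0.999). Of its 50-base stretches, 40.0% also occur in other genes, most in Gm14288, so the count is uncertain. Leaving out wild-type replicate 3 changed the log2 fold change of none of these 4 genes by more than the standard error, and they were 0.51 for Zfp277, 0.55 for Zfp503, 0.53 for Zfp775 and -0.51 for Zfp971.

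The next members by unadjusted p on the higher side were Zfp30 and Zfp426. Zfp30 (chr7:29783968-29794703) was at 11.3, 11.9 and 18.6 CPM in wild type and 19.1, 22.6 and 19.5 CPM in Ythdf2 -/- (log2 fold change 0.55, unadjusted p = 0.0598). Without wild-type replicate 3 it was at 0.81 (unadjusted p = 0.00148). Zfp426 (chr9:20468549-20492746), whose windows are printed above, was at 35.1, 35.7 and 41.2 CPM in wild type and 45.2, 54.7 and 41.7 CPM in Ythdf2 -/- (log2 fold change 0.34, unadjusted p = 0.0701). In both genes wild-type replicate 3 was the wild-type library nearest to the Ythdf2 -/- values. Zfp763, Zfp661 and Zfp697 followed with log2 fold changes of 0.39, 0.35 and 0.49 and unadjusted p of 0.104, 0.111 and 0.118, and were at 0.43, 0.31 and 0.60 without that library.

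On the lower side, several values moved towards 0 when wild-type replicate 3 was left out. Zfp950, a KRAB gene, was at 28.6, 31.5 and 58.8 CPM in wild type and 30.6, 21.2 and 28.1 CPM in Ythdf2 -/-, and its log2 fold change of -0.58 moved to -0.18 without that library. Zfp868 moved in the same way from -0.55 to -0.17, and Zfp397 from -0.40 to -0.05. Zfp1 was at -0.33 and then -0.17. Zfp239, Zfp639 and Zfp428 were at -0.33, -0.20 and -0.28 with all libraries, and at -0.21, -0.19 and -0.32 without it. Unadjusted p-values of these 7 genes were between 0.117 and 0.183 with all libraries.

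**Figure D2:**
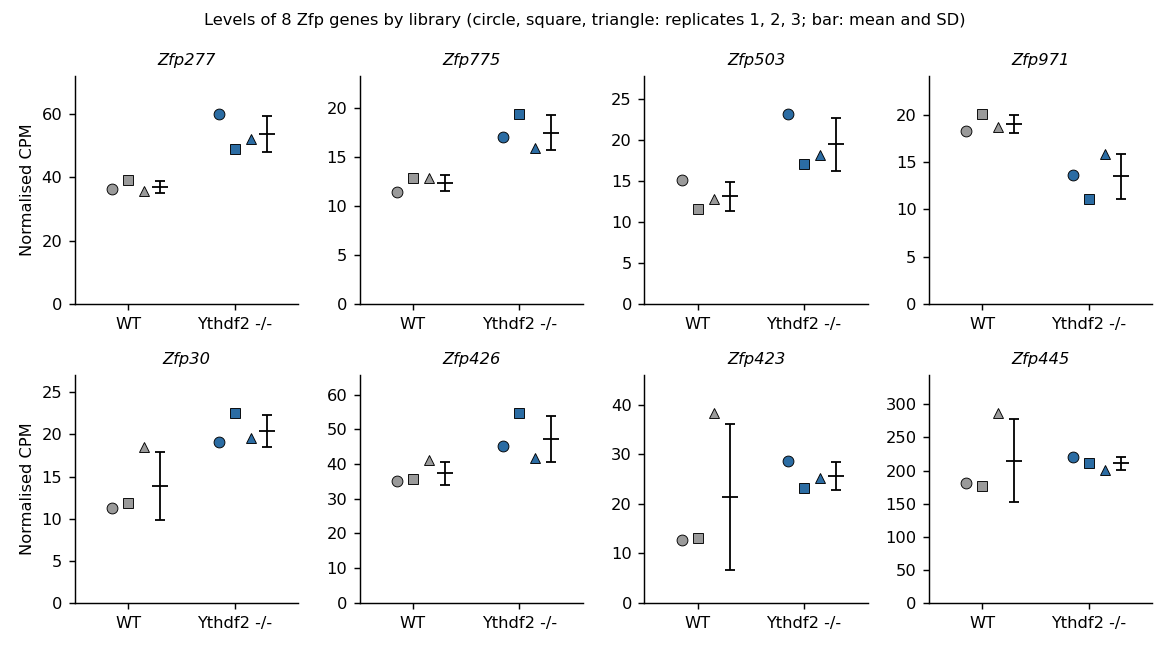
Normalised CPM of 8 Zfp genes in each wild-type (grey) and Ythdf2 -/- (blue) library, with circles, squares and triangles for replicates 1, 2 and 3 and bars for the mean and SD (n = 3). Zfp277, Zfp775, Zfp503, Zfp971, Zfp30 and Zfp426 did not overlap between genotypes, while in Zfp423 and Zfp445 the wild-type triangle (replicate 3) lay above all Ythdf2 -/- values and the other wild-type points below them.

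The narrow distribution over 6 libraries covered a split among the wild-type libraries. Relative to each gene's own mean over the 6 libraries, the median member lay at -0.16, -0.17 and 0.29 on the log2 scale in wild-type replicates 1, 2 and 3, and at 0.00, 0.11 and -0.08 in Ythdf2 -/- replicates 1, 2 and 3. The median of all genes tested lay between 0.00 and 0.02 in every library. Wild-type replicate 3 was the highest of the 6 libraries in 127 members (58.0%), against 33.8% of all genes tested. In 62 members (28.3%) all 3 Ythdf2 -/- values lay between wild-type replicates 1 and 2 below and wild-type replicate 3 above, against 9.71% of all genes tested. The members took 0.854%, 0.840% and 1.13% of counted reads in wild type and 0.928%, 1.03% and 0.900% in Ythdf2 -/-. The group means were 0.941% ± 0.163 (SD, n = 3) and 0.953% ± 0.0684 (SD, n = 3), closer together than either SD.

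**Figure D3:**
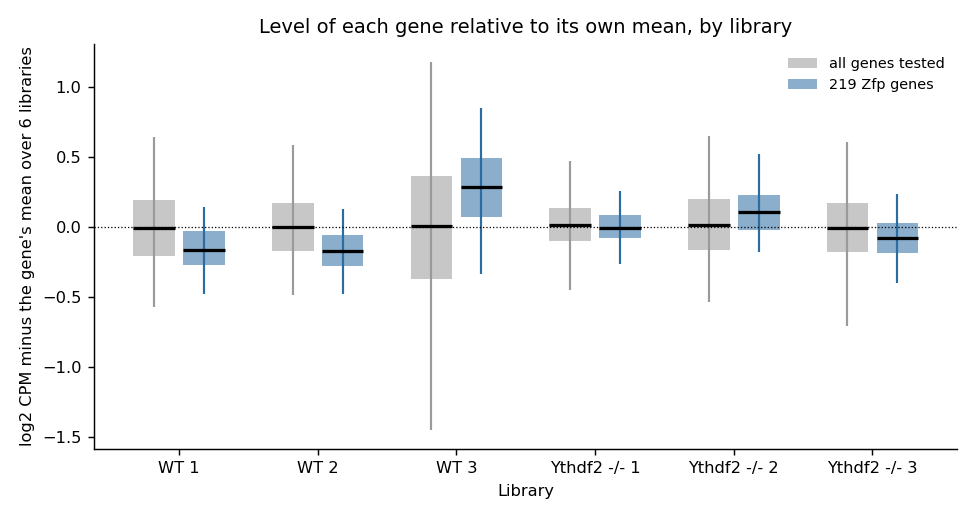
Log2 CPM of each gene minus its own mean over the 6 libraries, for all genes tested (grey) and the 219 Zfp genes (blue); black lines are medians, boxes the quartiles and thin lines the 5th to 95th percentile. The Zfp genes lay low in wild-type replicates 1 and 2 (medians -0.16 and -0.17) and high in wild-type replicate 3 (0.29), with the Ythdf2 -/- libraries between.

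Without wild-type replicate 3, the members as a whole lay higher in Ythdf2 -/-. The median log2 fold change became 0.19 against 0.01 for all genes tested, and 173 of 219 members (79.0%) had a value above 0, against 51.7% of all genes. At an unadjusted p under 0.05, 38 members were higher and 3 lower, where 8.03% and 8.58% of all genes were. None was called at an adjusted p under 0.05 (0.0151% of all genes, which is 2 genes). Over 1.5-fold higher were 9 of the 219 members, against 6.6% of all genes and 333 of the 9826 tested genes with at least 10 CPM. The 2 wild-type values lay wholly below the 3 Ythdf2 -/- values in 94 members and wholly above in 12, beside 18.8% and 20.1% of all genes. The tested Zfp genes below 10 CPM had a like median of 0.19 in this comparison, with 74 of 100 above 0.

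Leaving out either of the other wild-type libraries moved the members in the other direction. When wild-type replicate 1 or 2 was dropped instead, the members' median was -0.08 in both cases, and 80 members were above 0 in each. Without Ythdf2 -/- replicate 1, 2 or 3 the medians were 0.02, -0.055 and 0.04, with 120, 88 and 134 members above 0, so the sign of the median also changed with the Ythdf2 -/- library left out. Limma-voom with sample quality weights, which gave wild-type replicate 3 a weight of 0.0901, placed the median at 0.17 with 168 members above 0 (50.4% of all genes). At an unadjusted p under 0.05 it had 62 members higher and 6 lower (15.5% and 14.4% of all genes). It called 10 members at an adjusted p under 0.05, all higher (2.54% of all genes), and none lower (2.28%). The 10 were Zfp277, Zfp30, Zfp329, Zfp37, Zfp423, Zfp467, Zfp503, Zfp563, Zfp746 and Zfp827, and their log2 fold changes in that fit were between 0.45 and 1.05.

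Of these, Zfp423 (chr8:87661810-87962053), a factor with 27 fingers here that acts with Ebf proteins in the cerebellum and in fat cells, differed most. It was at 12.7, 13.1 and 38.4 CPM in wild type and 28.7, 23.2 and 25.2 CPM in Ythdf2 -/-. Its log2 fold change was 0.26 (unadjusted p = 0.582) with all libraries and 0.99 (standard error 0.149, unadjusted p = 0.000482, adjusted p = 0.151 by edgeR) without wild-type replicate 3. Zfp37 (chr4:62189537-62209129), whose windows are printed above, was at 16.8, 15.9 and 38.5 CPM in wild type and 32.3, 29.6 and 22.2 CPM in Ythdf2 -/-. Zfp827, whose human counterpart brings the NuRD complex to telomeres, was at 33.8, 33.2 and 79.6 CPM in wild type and 48.8, 47.9 and 47.0 CPM in Ythdf2 -/-. In all 3 genes the Ythdf2 -/- libraries lay between the wild-type libraries, as in the 62 members counted above.

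**Figure D4:**
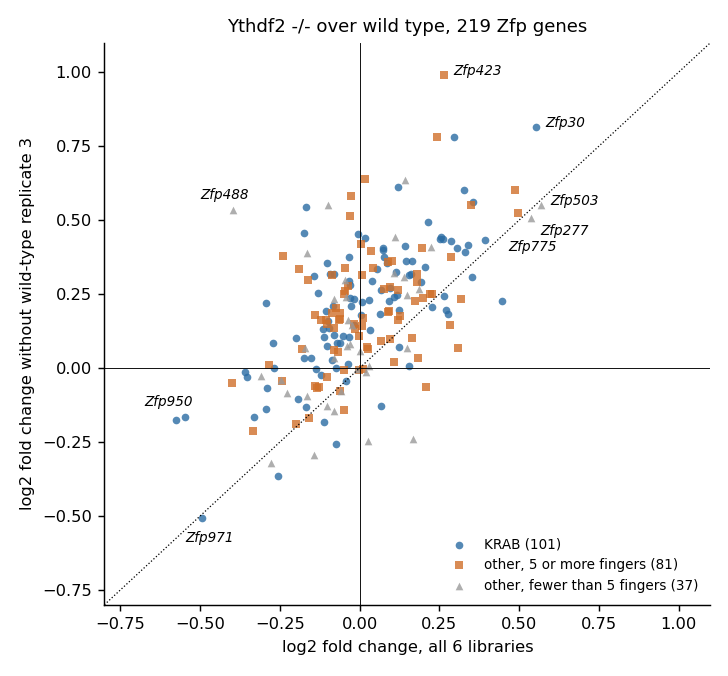
Log2 fold change (Ythdf2 -/- over wild type) of each of the 219 Zfp genes with all 6 libraries (x axis) and without wild-type replicate 3 (y axis), by structural class; the dotted line marks equal values. Most points lay above the line, 173 lay above 0 on the y axis against 105 to the right of 0 on the x axis, and Zfp277, Zfp503, Zfp775 and Zfp971 lay close to the line.

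The libraries also differed in reads on Y-linked genes, which were present in wild-type replicates 1 and 2 and in Ythdf2 -/- replicate 3 and absent from the other 3. The median member lay at -0.17 to -0.08 in the libraries with such reads and at 0.00 to 0.29 in those without. Among libraries with these reads, Ythdf2 -/- replicate 3 minus the mean of wild-type replicates 1 and 2 had a median of 0.08 over the members (143 above 0). Among those without, the mean of Ythdf2 -/- replicates 1 and 2 minus wild-type replicate 3 had a median of -0.24 (54 above 0). With a term for Y-linked reads the median was -0.09, 79 members were above 0 (50.8% of all genes), and 5 members were higher and 2 lower at an unadjusted p under 0.05 (5.23% and 5.72%). Over 5 equal groups of all genes by transcript GC content, the members' median in wild-type replicate 3 was 0.36 above their mean in the group of lowest GC, which held 97 members, and 0.20 to 0.30 in the others, while that of all genes was between -0.03 and 0.05. An offset for the trend in GC content was added after the data were seen, and the members' median log2 fold change with it was -0.03 with all libraries and 0.20 without wild-type replicate 3, with 97 and 182 members above 0.

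The structural classes were alike over all 6 libraries. The median log2 fold change was -0.02 for the 101 KRAB genes, 0.00 for the 81 others with 5 or more fingers and -0.04 for the 37 others with fewer. Without wild-type replicate 3 the medians were 0.23, 0.18 and 0.07, with 83, 66 and 24 members above 0. The difference between these classes was not tested. By level, the medians without that library were 0.20 for the 73 members of 10 to 20 CPM, 0.21 for the 90 members of 20 to 50 CPM and 0.16 for the 56 above 50 CPM.

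**Figure D5:**
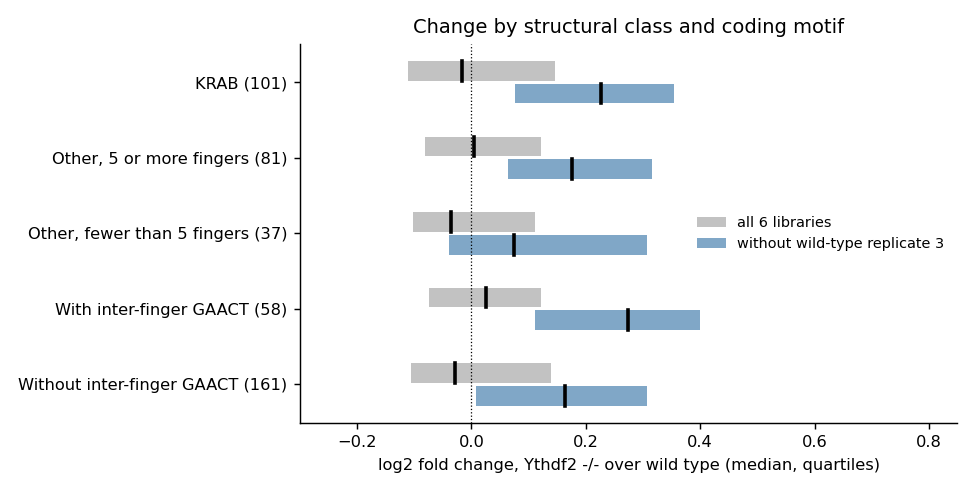
Median (black line) and quartiles (bars) of the log2 fold change, Ythdf2 -/- over wild type, for structural classes of the 219 Zfp genes and for members with and without GAACT in an inter-finger stretch. Such a stretch starts at the first histidine of a finger and ends before the next finger. Grey bars use all 6 libraries and blue bars leave out wild-type replicate 3. All grey medians lay between -0.04 and 0.02 and all blue medians between 0.07 and 0.27.

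Motifs of the m6A type were counted in members and in all tested genes. GGACT occurred 0.973 times per kb of the members' coding sequence against 1.19 in all tested genes, and GAACT occurred 1.17 times per kb in both (transcript strand only, and the motifs do not overlap each other). Over whole transcripts GGACT occurred 0.899 and 1.08 times per kb and GAACT 1.22 and 1.13 times per kb. At least 1 GGACT was found in the coding sequence of 78.5% of members and 77.9% of all tested genes with one, and at least 1 GAACT in 80.4% and 75.5%. The inter-finger stretches run from the first histidine of a finger to the next finger, and so include the finger's end. They made up 14.3% of the members' coding bases and held 123 of their 527 GAACT (23.3%), spread over 58 members. These 58 had a median log2 fold change of 0.02 with all libraries and 0.27 without wild-type replicate 3, and the 161 others had -0.03 and 0.16. Ordered by coding GGACT and GAACT per kb in 3 groups of 73, the medians from low to high density were -0.02, -0.02 and 0.00 with all libraries and 0.13, 0.21 and 0.27 without it. These are descriptions of sequence, with no test, and a motif is not a methylated site.

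Among the 3 members whose windows are shown, Zfp182 (chrX:21026184-21062113) was at 12.5, 14.0 and 38.7 CPM in wild type and 22.8, 20.9 and 14.47 CPM in Ythdf2 -/-. Its log2 fold change was -0.17 with all libraries and 0.55 without wild-type replicate 3. That of Zfp37 was 0.24 and 0.78, and that of Zfp426 was 0.34 and 0.42. Zfp788, which also held 6 windows, was at -0.15 and 0.03.

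The roles of the better-known members can be followed in 4 groups. The first acts on RNA and ribosomes. Compared per length of transcript, as CPM per kb of transcript (RPKM) from the raw counts, the spindle and Bub3-binding protein Zfp207 was the highest of all 219 members at 92.3 RPKM, where the median member was at 7.34. Zfp207 was at 226, 220 and 210 CPM in wild type and 201, 203 and 208 CPM in Ythdf2 -/-, a log2 fold change of -0.10 (unadjusted p = 0.396) with all libraries and -0.13 without wild-type replicate 3. The groups did not overlap, although the difference was small. Zfp106, an RNA-binding protein needed by motor neurons, was at 304, 304 and 290 CPM in wild type and 294, 285 and 339 CPM in Ythdf2 -/- (log2 fold change 0.03 and then 0.01 without that library). Zfp706 was at 0.02 and then -0.01, and the ribosome collision sensor Zfp598 at -0.06 and then -0.08. The nucleolar protein Zfp330 was at -0.14 and then -0.29 (unadjusted p = 0.0409 without that library). Over the 10 genes of this group the median was -0.05 with all libraries and -0.01 without wild-type replicate 3, with 0 higher and 0 lower at an unadjusted p under 0.05 in the first (1.81% and 1.82% of all genes) and 0 higher and 1 lower, Zfp330, in the second (8.03% and 8.58%), so that the count was near the background.

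The second group is known from neural and glial development. Of its 12 members 10 lay above 0 with all libraries (48.1% of all genes), and the median was 0.08. Zfp503 was the 1 with an unadjusted p under 0.05 (1.81% of all genes on the higher side). Leaving out wild-type replicate 3 moved that median to 0.30, and 4 were higher at that p, namely Zfp423, Zfp462, Zfp488 and Zfp503, beside 38 of the 219 members and 8.03% of all genes. Zfp488, which promotes oligodendrocyte differentiation, was at 33.7, 32.9 and 124 CPM in wild type and 52.1, 47.6 and 45.0 CPM in Ythdf2 -/-, so its log2 fold change went from -0.40 to 0.53. It was highest in wild-type replicate 3. Zfp462, with 33 fingers, was at 79.5, 72.2 and 199 CPM in wild type and 94.9, 163 and 96.9 CPM in Ythdf2 -/- (0.02 and then 0.64). Zfp24, needed for myelination, was at 176, 179 and 148 CPM in wild type and 185, 166 and 206 CPM in Ythdf2 -/- (0.15 and then 0.07), and Zfp365 moved from 0.03 to -0.25. Zfp219 was at 0.16 and then 0.10, and Zfp513 at 0.09 and then 0.19.

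The third group keeps imprints or silences retroelements. Zfp445 (chr9:122848910-122886851), which guards imprints together with Zfp57, was the highest KRAB member per length at 34.4 RPKM. It was at 181, 177 and 287 CPM in wild type and 221, 212 and 200 CPM in Ythdf2 -/-, giving a log2 fold change of -0.03 with all libraries and 0.24 (unadjusted p = 0.0442) without wild-type replicate 3. Zfp57 itself was low and uneven, at 9.83, 7.85 and 23.4 CPM in wild type and 9.03, 20.0 and 7.32 CPM in Ythdf2 -/-. Its values were high in 1 library of each genotype and overlapped fully, with log2 fold changes of -0.17 and then 0.46. Zfp568, which represses a placental form of Igf2, was at 19.8, 18.2 and 14.9 CPM in wild type and 14.1, 14.3 and 16.0 CPM in Ythdf2 -/- (-0.26 and then -0.36, unadjusted p = 0.203 and 0.0414). Zfp809, which silences murine retroviruses, was at 0.12 and then 0.20. Zfp932 was at -0.27 with all libraries and -0.00036 (unadjusted p = 0.997) without wild-type replicate 3, and 55.5% of its 50-base stretches are shared with other genes, most with its close copy Gm15446. Of the 6 genes of this group, 1 lay above 0 with all libraries (48.1% of all genes) and 3 did so without that library (51.7%). At an unadjusted p under 0.05 by edgeR, 1 was higher and 1 lower without it (8.03% and 8.58% of all genes).

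The fourth group regulates transcription and chromatin. Of its 19 members 5 lay above 0 with all libraries (48.1% of all genes) and 12 without wild-type replicate 3 (51.7%). Its medians were -0.05 and 0.15. At an unadjusted p under 0.05 by edgeR, 0 were higher and 0 lower with all libraries (1.81% and 1.82% of all genes). Without wild-type replicate 3, 5 were higher and 0 lower (8.03% and 8.58%), beside 38 and 3 of the 219 members. The ubiquitin ligase Zfp91 was at 158, 165 and 175 CPM in wild type and 158, 155 and 170 CPM in Ythdf2 -/- (-0.05 and then -0.01). Zfp131 was at -0.06 and then -0.08, and Zfp384 at 0.00 and then 0.11. Zfp687 was at 78.6, 77.2 and 96.6 CPM in wild type and 92.9, 97.3 and 95.3 CPM in Ythdf2 -/- (0.18 and then 0.29, unadjusted p = 0.223 and 0.0139). Zfp609, which works with Nipbl and Integrator in cortical neurons, was at 84.6, 76.7 and 219 CPM in wild type and 119, 128 and 107 CPM in Ythdf2 -/- (-0.10 and then 0.55). After Zfp207, the highest members per length were Zfp664, Zfp24, Zfp146, which consists almost wholly of fingers, and Zfp740, at 64.7, 56.4, 45.7 and 44.3 RPKM. For Zfp664, Zfp146 and Zfp740 the log2 fold changes were -0.13, -0.16 and -0.02 with all libraries and -0.06, -0.17 and 0.15 without wild-type replicate 3.

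In the genome, 127 members lay within 250000 bases of another numbered Zfp gene, and chromosomes 7 and 17 held 51 and 25 of the 219. The cluster with the most members, at chr7:29768552-30169775, held 15 numbered Zfp genes, of which 11 were members. Their median log2 fold change was -0.03 with all libraries and 0.25 without wild-type replicate 3. The cluster at chr17:21383707-22456689 held 9 members, at -0.12 and 0.04, and the one at chr17:32765496-33631716 held 8, at 0.11 and 0.30. The 9 other clusters with 4 or 5 members had medians of -0.07 to 0.32 with all libraries and of 0.02 to 0.40 without that library. Neighbours in a cluster can share reads, and 22 members shared at least 10% of their 50-base stretches with other genes. Without these 22, 158 of 197 members were above 0 when wild-type replicate 3 was left out, with a median of 0.20. A further limit is strand, since exons of 56 members overlapped a gene on the opposite strand. The 163 without such overlap had a median of 0.22, with 126 above 0.

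Trim28, which KRAB domains bind, and other genes of repressive chromatin were followed in a list of 20 co-repressor genes. With all libraries 0 were higher and 0 lower at an unadjusted p under 0.05 (1.81% and 1.82% of all genes), the median was 0.02 and 11 lay above 0 (48.1% of all genes). Trim28, the direct KRAB partner, was at 334, 327 and 247 CPM in wild type and 254, 282 and 269 CPM in Ythdf2 -/- (log2 fold change -0.17, unadjusted p = 0.321). Without wild-type replicate 3 its log2 fold change was -0.30 (unadjusted p = 0.0232), and 1 gene of the list was higher and 6 lower at that p (8.03% and 8.58% of all genes). The 6 were Trim28, Hdac1, Hdac2, Suv39h2, Uhrf1 and Dnmt1, and the 1 was the NuRD helicase Chd3 at 1.22. The heterochromatin protein Cbx3 was at -0.08 and then -0.21, and the NuRD helicase Chd4 at 0.07 and then 0.22. In that comparison the median of the list was -0.04, beside 0.19 for the Zfp members.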

How the data were processed

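RNA-seq input libraries of 3 wild-type and 3 Ythdf2 -/- NSPC cultures were used, grouped by the genotype in the sample titles. The 6 m6A-IP samples are not analysed here. The authors fragmented mRNA, prepared stranded libraries, used TopHat for alignment to mm10, and deposited raw counts per gene. The submitters' processing notes also name Bowtie2 2.2.9, RSEM 1.2.15 and featureCounts. The strand setting of the counting is not given in the sources used here. The authors also deposited expected counts per gene, which summed to 1.97% to 2.40% of the raw counts and served as a cross-check, with gene length, a value in bases, from the same deposited tables. Their TPM and FPKM columns were not used here.

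CPM for the membership rule was the count over the library total. Counts were scaled by TMM (factors 0.988 to 1.03), and genes passing filterByExpr were tested in edgeR 4.0.16 (robust glmQLFit, glmQLFTest; R 4.3.3) in a model with genotype alone, adjusting p-values by Benjamini-Hochberg over 13112 genes. Alternatives used limma 3.58.1 and DESeq2 1.42.0. Normalised CPM are TMM-scaled, log2 CPM for library deviations used a prior count of 2, and RPKM divides by the deposited length. Positions are those of GRCm38.p6, and transcripts those of GENCODE M21. Fingers and KRAB-like patterns were found by text patterns in translated coding sequences, so a diverged domain can be missed.

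Members, role lists and markers were chosen with earlier results of these data known. Genes named are Ythdf2, the 8 members with the highest RPKM, the 8 on each side with the smallest p, the 4 of highest RPKM in each role list, the 3 on each side of the limit and the 4 co-repressor genes of highest RPKM; all others were named after their values were seen. In total 19 alternatives were planned and 2, an offset for GC content with and without wild-type replicate 3, were added after the data were seen. Same-numbered libraries of the 2 genotypes deviated from their group means in opposite directions (correlations -0.248, -0.244 and -0.394), so they were not taken as pairs.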

Additional observations from a re-analysis of the deposited data

How the results depend on the processing

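The narrow distribution held its median between -0.03 and 0.02 under other size factors, DESeq2, limma-voom, other filters on low counts and the GC offset alone, and 0 members were called in each of these. Leaving out 1 library at a time gave 1 to 38 members higher and 0 to 3 lower at an unadjusted p under 0.05, 80 to 173 members above 0, a median of -0.082 to 0.19, 11 to 94 members wholly above and 10 to 17 wholly below in Ythdf2 -/-, 0 to 7 co-repressor genes at that p, and a Ythdf2 log2 fold change of -2.78 to -2.54. The values 38, 3, 173, 0.19, 94 and 7 came without wild-type replicate 3, and fewer libraries by themselves make groups overlap less. Without that library, 18.8% and 20.1% of all genes lay wholly above and below, and 8.03% and 8.58% were higher and lower at that p. Shares of all genes without each of the other libraries are not given here, so the counts from those fits have no background beside them.

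With sample quality weights, 62 members were higher and 6 lower at an unadjusted p under 0.05 (15.5% and 14.4% of all genes), 10 were called, 168 lay above 0, and 6 co-repressor genes passed that p. With a term for Y-linked reads, 5 were higher and 2 lower (5.23% and 5.72%). With the GC offset and without wild-type replicate 3, a combination added after the data were seen, 40 were higher and 2 lower, 182 lay above 0 with a median of 0.20, and 5 co-repressor genes passed. Shares of all genes are not given here for this combination, for the fit with no filter or for the replicate block, so those counts have no background beside them. The lower count was 0 with no filter on low counts. With a limit of 20 CPM in place of 10 there were fewer members, with 1 higher and 0 lower (1.81% and 1.82% of all genes), 67 above 0 and 2 wholly above (5.26%). With the replicate number as a block, 2 members were higher and 0 lower at that p, Zfp445 was at 0.0094 and 116 members were above 0. The labels do not say whether the numbers pair the samples. The members lost under the block were Zfp775 and Zfp971, with unadjusted p of 0.0825 and 0.0968 by edgeR. The median RPKM was 5.83 with exon lengths from the annotation. Ythdf2, at an adjusted p of 0.0547 in the report, passed 0.05 at -2.67 with RLE size factors, -2.67 with DESeq2, -2.62 with quality weights, -2.64 with no filter, -2.66 with at least 10 counts in each library, -2.75 with the Y-linked term, -2.54 without wild-type replicate 3 (adjusted p = 0.0203) and -2.51 with the GC offset and without it. It did not pass with library totals alone (adjusted p = 0.0722), limma-voom (0.0727), the GC offset alone (0.111) or the replicate block (0.9999), and leaving out any other library gave adjusted p of 0.246 to 0.866.

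Sign changes among single genes were all of uncalled values, and the causes were not tested. With quality weights, Zfp740 was at 0.076, Zfp445 at 0.26, Zfp397 at 0.0042, Zfp106 at -0.013, Zfp365 at -0.27, Zfp932 at 0.047, Zfp57 at 0.13, Zfp384 at 0.054, Zfp51 at 0.0046 and Zfp213 at -0.083. With the GC offset and without wild-type replicate 3, Zfp740 was at 0.16, Zfp445 at 0.26, Zfp365 at -0.22, Zfp932 at 0.0093, Zfp57 at 0.49, Zfp91 at 0.013, Zfp384 at 0.10, Zfp940 at 0.0040, Zfp51 at 0.049 and Zfp213 at -0.055. With the GC offset alone Zfp438 was at -0.0051. With the Y-linked term Zfp438 was at -0.085, Cbx3 at 0.020 and Hdac2 at 0.030. Zfp445 was at 0.0039 with limma-voom, and Zfp384 at 0.015 with library totals alone and 0.014 with no filter. Leaving out 1 library ran Zfp740 from -0.11 to 0.15, Zfp706 from -0.015 to 0.090, Zfp445 from -0.15 to 0.24, Zfp106 from -0.051 to 0.090, Zfp365 from -0.25 to 0.22, Zfp809 from -0.12 to 0.25, Zfp57 from -0.73 to 0.46, Zfp384 from -0.14 to 0.11, Zfp940 from -0.37 to 0.049, Zfp51 from -0.38 to 0.035, Zfp438 from -0.20 to 0.35, Zfp213 from -0.019 to 0.24, Cbx3 from -0.21 to 0.075, Chd4 from -0.019 to 0.22 and Hdac2 from -0.29 to 0.039.

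Every member had at least 81 counted reads in each library. The comparison is limited by 3 libraries per genotype and by the place of wild-type replicate 3 among them.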
